A study of Mus musculus with 39 samples.

Results

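Expression of 10 genes of the NFκB pathway was described across 39 mouse mammary adenocarcinomas of no special type. The genes were taken from the table of raw counts by symbol, 10 of the 53715 genes it lists: the subunit genes Nfkb1, Nfkb2, Rel, Rela and Relb, the inhibitor genes Nfkbia, Nfkbie and Tnfaip3, the kinase gene Map3k14 and the cofactor gene Bcl3. All 10 passed the low-count filter in every comparison. Every tumour came from an adult female BlgCre;Brca1flox/flox;p53 +/- mouse, in which the β-lactoglobulin promoter drives Cre recombinase in the mammary epithelium, so leukocytes and stroma keep their floxed genes. Of the tumours, 12 were Lynwt/wt (9 mice), 14 Lynfl/wt (10 mice) and 13 Lynfl/fl (9 mice), where fl is an allele of the SRC-family kinase gene Lyn with a floxed exon. The authors also labelled 13 tumours Lyn-high and 13 Lyn-low by their Lyn transcript level, leaving 13 in neither group, and separated 29 tumours (24 animals) as PCA group 1/2 from 10 (8 animals) as PCA group 3/4. Both labels were made from the same expression values that are compared here, so tests between those groups describe the groups and are not independent of how they were formed; the genotype is independent of expression. PCA group 3/4 held 3 Lynwt/wt, 6 Lynfl/wt and 1 Lynfl/fl tumours, of which 6 were Lyn-high, 4 in neither Lyn group and 0 Lyn-low, and 3 of the 10 (Lynfl/wt 8, 9 and 19) came from 1 animal.

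Total counts ranged from 50490044 to 83122719 per tumour (median 62409143). Lyn itself ran from 1771.9 to 11705.9 normalised counts in Lynwt/wt tumours, from 1637.9 to 5308.4 in Lynfl/wt tumours and from 656.6 to 5865.5 in Lynfl/fl tumours; a count over the whole gene does not tell whether the floxed exon was deleted. The first part of the database ID, 20 or 21, was not balanced over the groups: it was 20 in 7 of 10 PCA group 3/4 but 11 of 29 PCA group 1/2 tumours, and 9 of 13 tumours were of prefix 20 among Lyn-high against 4 of 13 among Lyn-low ones. Sections of Lynwt/wt 20, Lynfl/wt 8 and Lynfl/wt 30 in PCA group 3/4 held salivary gland or lymph node. In the larger PCA group 1/2 those of Lynwt/wt 2 and Lynwt/wt 42 did, so this tissue was not balanced over the PCA groups either. RNA was taken from whole pieces of tumour, so fewer cells of a type and less RNA per cell cannot be told apart in any value below. Normalised counts are scaled by the trimmed mean of M-values (TMM) to the mean library, fold changes are on the log2 scale with their SE, and a gene passed where edgeR's quasi-likelihood test gave a Benjamini-Hochberg adjusted p under 0.05 over all genes tested.

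NFκB transcription factors are dimers of Rel-family subunits. In the canonical arm, stimuli such as tumour necrosis factor activate the IκB kinase (IKK) complex, which marks the inhibitors IκBα (Nfkbia) and IκBε (Nfkbie) for destruction and frees dimers of p50 (from Nfkb1), p65 (Rela) and c-Rel (Rel). In the non-canonical arm, receptors such as the lymphotoxin β receptor, CD40 and RANK let the kinase NIK (Map3k14) accumulate, and NIK triggers processing of p100 (from Nfkb2) to p52, which pairs with RelB (Relb). Several inhibitors are themselves transcribed by NFκB as negative feedback, among them IκBα, IκBε and the ubiquitin-editing enzyme A20 (Tnfaip3); p100 also acts as an inhibitor before it is processed. BCL-3 (Bcl3) is an atypical IκB protein that binds p50 and p52 dimers in the nucleus. The non-canonical arm is known in the mammary gland for RANK-driven growth of the alveoli, and in lymphoid tissue for organising lymph nodes and the thymus.

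Of the 10 genes, 8 had a promoter in the RefSeq table for GRCm38.p6, and 5 of these 8 held at least 1 match to the κB consensus, the site bound by NFκB dimers, on either strand of the 250 bases before a transcription start. Over the 27025 symbols of the table the share with a match was 8.23%. The sequences below are shown because they belong to members whose levels set the groups apart, with and without a match: Nfkb2, Nfkbia and Tnfaip3 with a match near the start and a large difference, Rel with a match and a small difference, and Map3k14 without a match and with a large difference. Each is the 250 bases before a start, read 5′ to 3′ on the strand of the gene, with bases of a κB match in capitals.
Nfkb2, chr19:46304487-46304736, plus strand: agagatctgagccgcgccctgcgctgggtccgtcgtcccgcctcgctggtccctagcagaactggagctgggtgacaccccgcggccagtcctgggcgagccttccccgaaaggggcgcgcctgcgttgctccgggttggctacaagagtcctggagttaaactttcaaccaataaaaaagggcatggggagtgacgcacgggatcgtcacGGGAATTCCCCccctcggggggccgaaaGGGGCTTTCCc
Nfkbia, chr12:55492648-55492897, minus strand: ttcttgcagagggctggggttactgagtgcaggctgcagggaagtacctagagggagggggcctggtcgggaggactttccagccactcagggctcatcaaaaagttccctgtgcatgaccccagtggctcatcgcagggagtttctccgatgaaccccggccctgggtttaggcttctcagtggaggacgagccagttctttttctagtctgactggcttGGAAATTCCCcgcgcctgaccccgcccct
Tnfaip3, chr10:19015411-19015660, minus strand: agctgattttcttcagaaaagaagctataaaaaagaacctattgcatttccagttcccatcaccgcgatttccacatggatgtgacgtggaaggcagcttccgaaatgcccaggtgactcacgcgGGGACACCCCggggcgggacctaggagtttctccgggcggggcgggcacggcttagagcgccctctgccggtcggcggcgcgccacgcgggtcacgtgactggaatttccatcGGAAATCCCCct
Rel, chr11:23770970-23771219, minus strand: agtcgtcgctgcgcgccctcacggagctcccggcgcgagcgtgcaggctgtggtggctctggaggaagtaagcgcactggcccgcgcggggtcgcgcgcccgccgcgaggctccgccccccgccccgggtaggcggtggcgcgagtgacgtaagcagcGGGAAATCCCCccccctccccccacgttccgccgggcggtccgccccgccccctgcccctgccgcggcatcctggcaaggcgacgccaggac
Map3k14, chr11:103267402-103267651, minus strand: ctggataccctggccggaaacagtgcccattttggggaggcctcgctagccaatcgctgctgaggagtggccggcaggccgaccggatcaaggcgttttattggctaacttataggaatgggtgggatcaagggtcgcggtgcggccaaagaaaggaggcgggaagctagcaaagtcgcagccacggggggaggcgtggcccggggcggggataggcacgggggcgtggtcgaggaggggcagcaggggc
The table has 3 starts for Nfkb2, each with a match, and 2 for Tnfaip3, of which the start shown has matches and the other has none. In the Nfkb2 window shown, the matches begin 39 and 38 bases (overlapping, the palindromic site) and 11 bases before the start, and in that of Nfkbia the match begins 29 bases before it. Nfkbie also held a match, 106 bases before its start, while Rela, Map3k14 and Bcl3 held none and Nfkb1 and Relb were not in the table. A match describes letters in the sequence, not binding.

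The 10 genes were expressed at levels far apart. In library-scaled counts (CPM) per kilobase of exon, the means over PCA group 1/2 tumours (± SD, n = 29) fell in the order Nfkbia 77.5 ± 37.8, Rela 42.7 ± 13.9, Nfkb2 34.0 ± 15.6, Bcl3 18.8 ± 5.86, Nfkb1 12.95 ± 4.38, Nfkbie 12.2 ± 7.97, Relb 11.1 ± 4.85, Map3k14 6.05 ± 3.87, Tnfaip3 3.65 ± 2.35 and Rel 1.38 ± 0.636. In PCA group 3/4 tumours (n = 10) on the same scale the order was Nfkbia 360.8 ± 167.5, Nfkb2 150.2 ± 48.3, Relb 58.1 ± 30.7, Nfkbie 57.7 ± 25.0, Rela 53.4 ± 8.25, Bcl3 47.5 ± 16.6, Map3k14 25.2 ± 11.1, Nfkb1 22.1 ± 8.60, Tnfaip3 21.8 ± 11.2 and Rel 2.24 ± 0.750. Nfkbia was thus the most abundant transcript of the set and Rel the least in both groups, while Rela, the main activating subunit of the canonical arm, stood next to Nfkbia in PCA group 1/2 and behind Nfkb2, Relb and Nfkbie as well in PCA group 3/4. Neighbours in these orders mostly differed by less than the larger SD of the pair. The exceptions were Bcl3 over Nfkb1 and Relb over Map3k14 in PCA group 1/2, and Nfkbia over Nfkb2, Nfkb2 over Relb, Bcl3 over Map3k14 and Tnfaip3 over Rel in PCA group 3/4.

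Most of the genes differed across the unsupervised split of the tumours. Between PCA group 3/4 and PCA group 1/2, 9 of the 10 genes were higher and 0 lower, against 12.2% of the 19453 genes tested that were higher, and 7 of the 10 were also at least 2-fold higher, against 7.71% of all genes. The median log2 fold change was 2.10 over the 10 genes and -0.05 over all genes tested. The 3 members under 2-fold were the canonical DNA-binding subunits Nfkb1, Rel and Rela. The 7 others were the inhibitors, the 3 non-canonical members and Bcl3. Of the 28 animals 4 had tumours in both PCA groups, and with the animal as a fixed block in edgeR, which compares tumours within these 4, 6 of the 10 genes passed, against 301 of the 19453 genes. Nfkb1 (log2 fold change 0.63, adjusted p = 0.379), Rel (0.65, adjusted p = 0.555) and Bcl3 (1.12, adjusted p = 0.130) then did not pass, and the 6 that did lay between 2.28 for Relb and 3.13 for Nfkbie.

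The canonical subunits differed least. Nfkb1 (chromosome 3 of GRCm38, 135584655 to 135691547), which encodes p105 and p50, had a lowest, median and highest value of 3144.5, 9515.4 and 18951.6 normalised counts in PCA group 1/2 tumours and of 10429.3, 15429.3 and 28642.9 in PCA group 3/4 tumours. The groups overlapped widely: 12 of the 29 PCA group 1/2 tumours lay above the lowest PCA group 3/4 tumour, and the highest values were those of Lynfl/wt 8 and Lynwt/wt 20, at 28642.9 and 28296.1. The log2 fold change of Nfkb1 was 0.77 (SE 0.18, adjusted p = 0.00163 from edgeR). Rel (chromosome 11, 23736847 to 23770970), the gene of c-Rel, a subunit most used by lymphocytes, had 288.0, 581.2 and 1720.4 normalised counts in PCA group 1/2 against 465.5, 1094.6 and 1637.2 in PCA group 3/4. As many as 20 of the 29 PCA group 1/2 tumours lay above the lowest PCA group 3/4 value, and the highest of all was the Lyn-low tumour Lynwt/wt 4. Its log2 fold change was 0.70 (SE 0.21, adjusted p = 0.0151). Rela (chromosome 19, 5637483 to 5648130), the gene of p65, had 3693.2, 8158.8 and 17036.0 normalised counts against 8105.4, 10792.0 and 12822.6. Its 2 highest values, 17036.0 in Lynfl/fl 74 and 15031.9 in Lynwt/wt 59, belonged to PCA group 1/2 tumours. The log2 fold change of Rela was 0.32 (SE 0.15) and did not pass (adjusted p = 0.112), except without Lynfl/fl 74 (adjusted p = 0.037).

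The inhibitors of the canonical arm had larger fold changes than the subunits they restrain. Nfkbia (chromosome 12, 55489410 to 55492647) had 3168.8, 7122.9 and 19208.3 normalised counts in PCA group 1/2 and 12825.9, 35088.8 and 66890.8 in PCA group 3/4. Only Lynwt/wt 42 (18221.4) and Lynfl/fl 74 (19208.3) of the former lay above the lowest of the latter, Lynwt/wt 3, whose next neighbour in its group stood at 20485.1. The log2 fold change was 2.22 (SE 0.22, adjusted p = 6.45e-10). Nfkbie (chromosome 17, 45555703 to 45563169) had 335.9, 2362.0 and 7862.2 normalised counts against 4052.3, 11255.1 and 16780.9. The 2 lowest PCA group 3/4 tumours, Lynfl/wt 19 (4052.3) and Lynfl/wt 9 (4708.9), came from the same animal and lay below Lynfl/wt 29 (5396.6) and Lynfl/fl 74 (7862.2) of PCA group 1/2. The log2 fold change was 2.24 (SE 0.30, adjusted p = 3.35e-07). Tnfaip3 (chromosome 10, 19000910 to 19015657), which encodes A20, had 380.8, 1487.8 and 5913.2 normalised counts against 4152.6, 9739.3 and 19870.9. A single PCA group 1/2 tumour, the Lyn-high tumour Lynfl/fl 13, exceeded the lowest PCA group 3/4 tumour. Tnfaip3 had the largest log2 fold change of the 10 genes, 2.58 (SE 0.27, adjusted p = 1.86e-09).

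**Figure D1:**
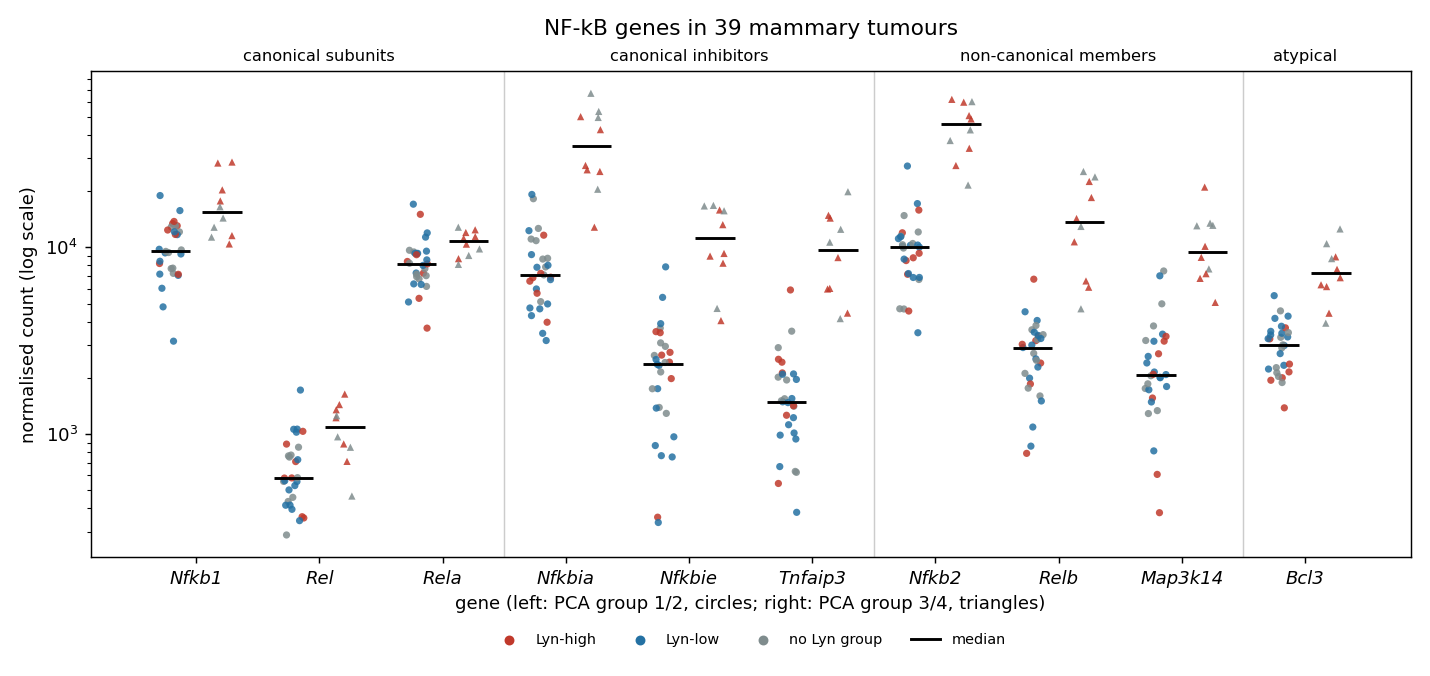
Normalised counts of the 10 genes in each of the 39 tumours on a log10 axis, by PCA group, with circles for PCA group 1/2, triangles for PCA group 3/4, colours for the Lyn group and bars for the medians. Nfkb2 ran from 3488.9 to 27269.4 in PCA group 1/2 and from 21564.2 to 62072.9 in PCA group 3/4, with 1 tumour of the former above the lowest of the latter, while for Rel 20 of 29 lay above it.

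All 3 non-canonical members were higher. Nfkb2 (chromosome 19, 46304320 to 46312385), which encodes p100 and p52, had 3488.9, 10029.4 and 27269.4 normalised counts in PCA group 1/2 and 21564.2, 45665.1 and 62072.9 in PCA group 3/4. The 1 overlapping tumour was Lynfl/fl 74 at 27269.4, and 1 PCA group 3/4 tumour, Lynfl/wt 9 at 21564.2, lay below it. The log2 fold change of Nfkb2 was 2.14 (SE 0.20, adjusted p = 8.94e-11), the smallest p of the set. Relb (chromosome 7, 19606217 to 19629438), the partner of p52, had 788.0, 2906.4 and 6754.7 normalised counts against 4687.7, 13611.0 and 25486.9. The PCA group 1/2 tumour Lynwt/wt 59, at 6754.7, lay above Lynfl/wt 9 (4687.7), Lynwt/wt 3 (6116.9) and Lynwt/wt 20 (6607.5) of PCA group 3/4. Its log2 fold change was 2.38 (SE 0.23, adjusted p = 3.26e-10). Map3k14 (chromosome 11, 103219762 to 103267472), the gene of NIK, had 379.1, 2082.8 and 7474.3 normalised counts against 5073.1, 9484.2 and 21030.0. The PCA group 1/2 tumours Lynfl/fl 15 (7474.3) and Lynfl/fl 74 (7041.3) reached into the range of PCA group 3/4, whose highest tumour, Lynfl/wt 19, stood apart from the next at 13477.2. Its log2 fold change was 2.06 (SE 0.27, adjusted p = 2.82e-07).

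Bcl3 (chromosome 7, 19808462 to 19822770) lay between the canonical subunits and the rest, with 1381.8, 3005.0 and 5513.4 normalised counts in PCA group 1/2 and 3926.0, 7252.6 and 12550.4 in PCA group 3/4. Of the 29 PCA group 1/2 tumours 4 lay above the lowest PCA group 3/4 tumour, 3 of them Lyn-low. The log2 fold change of Bcl3 was 1.33 (SE 0.16, adjusted p = 4.46e-08). None of the 10 genes separated the PCA groups without overlap, and 0.0668% of all genes tested did so with PCA group 3/4 higher. Lynfl/fl 54, the only Lynfl/fl tumour of PCA group 3/4, had the highest value of all 39 tumours for 3 genes and was among the 5 highest for 8. At the other end, Lynwt/wt 41 (Lyn-high) and Lynwt/wt 60 (Lyn-low) were each the lowest for 4 genes and among the 5 lowest for 9.

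**Figure D2:**
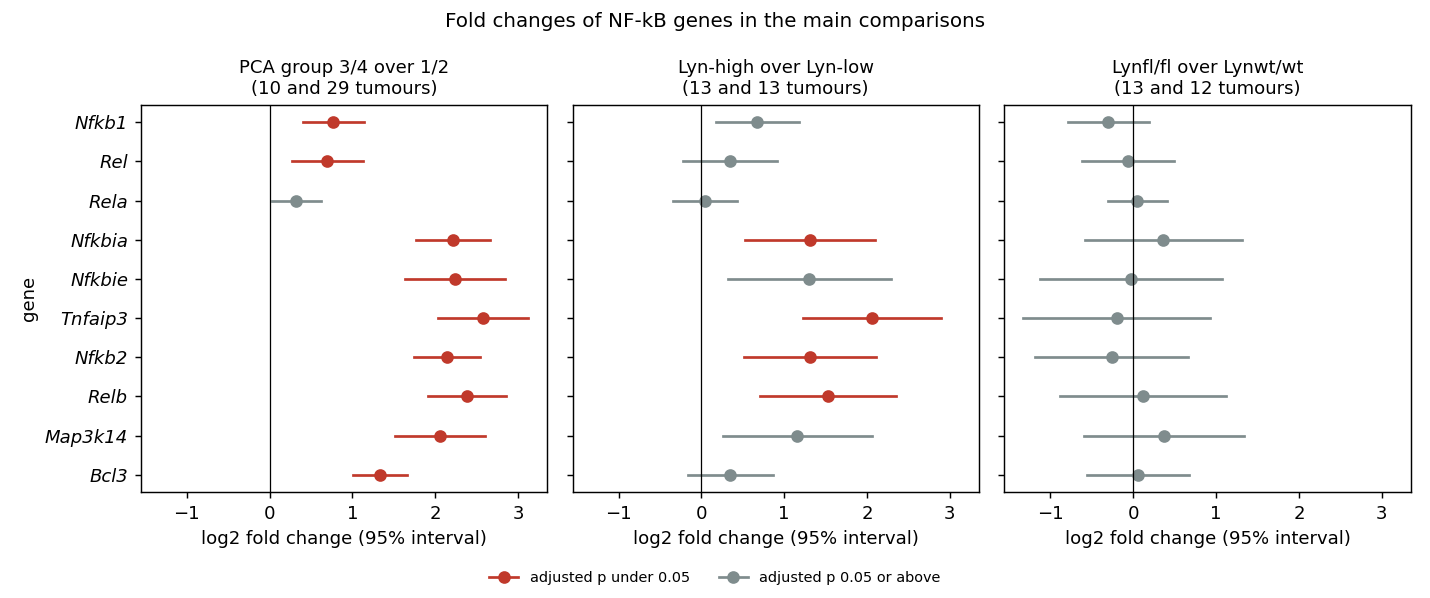
Log2 fold changes of the 10 genes, with 95% confidence intervals from edgeR, for PCA group 3/4 against PCA group 1/2, Lyn-high against Lyn-low and Lynfl/fl against Lynwt/wt tumours; red points have an adjusted p under 0.05 and grey points do not. The PCA fold changes run from 0.32 for Rela to 2.58 for Tnfaip3, the Lyn fold changes from 0.05 for Rela to 2.06 for Tnfaip3, and the genotype fold changes from -0.30 for Nfkb1 to 0.37 for Map3k14.

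The unequal change of the subunits shifted their ratios. On the scale of counts per kilobase, the level of Nfkb2 over that of Nfkb1 had a median of 2.70 (1.41 to 5.92) in PCA group 1/2 and of 6.10 (4.39 to 15.1) in PCA group 3/4, with 1 PCA group 1/2 tumour above the lowest PCA group 3/4 tumour. Relb over Rela had a median of 0.24 (0.125 to 0.469) against 0.869 (0.389 to 2.486), with 2 tumours above. Transcript of Relb was thus under that of Rela in every PCA group 1/2 tumour and over it in some of PCA group 3/4. Nfkbia over Rela had a median of 1.75 (0.796 to 4.93) against 6.43 (1.97 to 13.01), but 11 PCA group 1/2 tumours lay above the lowest PCA group 3/4 tumour. These ratios are given as descriptions, with no test.

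Because no Lyn-low tumour was in PCA group 3/4, the PCA groups were also compared with the Lyn group held fixed. Within the 13 Lyn-high tumours, the 6 of PCA group 3/4 were higher than the 7 of PCA group 1/2 for 7 of the 10 genes, against 1.42% of the 18226 genes tested; these were the same 7 that were at least 2-fold higher over all tumours. Nfkb2 had 4560.0, 8793.2 and 15837.9 normalised counts (lowest, median and highest) in the 7 and 27439.1, 49764.8 and 62072.9 in the 6, with no overlap (log2 fold change 2.33, SE 0.29, adjusted p = 0.00189). Nfkbia (2.15), Nfkbie (2.03), Map3k14 (2.33) and Bcl3 (1.49) did not overlap either, so that 5 of the 10 genes were separated, against 0.894% of all genes. Relb and Tnfaip3 had log2 fold changes of 2.11 and 1.99 (adjusted p = 0.0227 and 0.0390), each with a PCA group 1/2 tumour inside the range of PCA group 3/4. Nfkb1 (0.78, adjusted p = 0.142), Rel (0.92, adjusted p = 0.131) and Rela (0.44, adjusted p = 0.413) did not pass. Without the 2 Lyn-high tumours whose sections held salivary gland or lymph node, Lynfl/wt 8 and Lynwt/wt 20, 3 genes passed (Nfkb2, Nfkbia and Bcl3), with log2 fold changes of the other 4 between 1.78 and 2.48.

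The 13 tumours in neither Lyn group share no tumour with the above. Some came from the same animals, as Lynfl/wt 9 did with the Lyn-high tumours Lynfl/wt 8 and 19, so these sets are not independent. The same 7 genes were higher in the 4 tumours of PCA group 3/4 than in the 9 of PCA group 1/2, against 3.53% of the 19314 genes tested. Nfkbia had 20485.1 normalised counts in Lynfl/wt 9, 53476.0 in Lynfl/wt 30, 49656.2 in Lynfl/wt 49 and 66890.8 in Lynfl/fl 54, against 5120.4 to 18221.4 in the 9 (log2 fold change 2.24, SE 0.32, adjusted p = 0.00158). Relb had 4687.7, 12946.6, 25486.9 and 23844.4 in the same order of tumours, against 1600.2 to 3815.2 (log2 fold change 2.61, SE 0.35, adjusted p = 0.00111). Lynfl/wt 9 was the lowest of the 4 for each of the 7 genes. In all, 6 genes were separated without overlap (all of the 7 but Bcl3), against 1.48% of all genes. The log2 fold changes of the remaining 5 ran from 1.65 for Bcl3 to 2.72 for Tnfaip3. Map3k14, at 1.94 (adjusted p = 0.0157), did not pass without Lynfl/wt 49, without Lynfl/fl 54 or without the tumours whose sections held salivary gland or lymph node (adjusted p = 0.0565, 0.0614 and 0.0578). The difference of the PCA effects in the Lyn-high and the neither tumours was itself tested as an interaction, and no member passed (lowest adjusted p = 0.955); of all 18491 genes tested 0 passed, and 941 had an unadjusted p under 0.05.

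**Figure D3:**
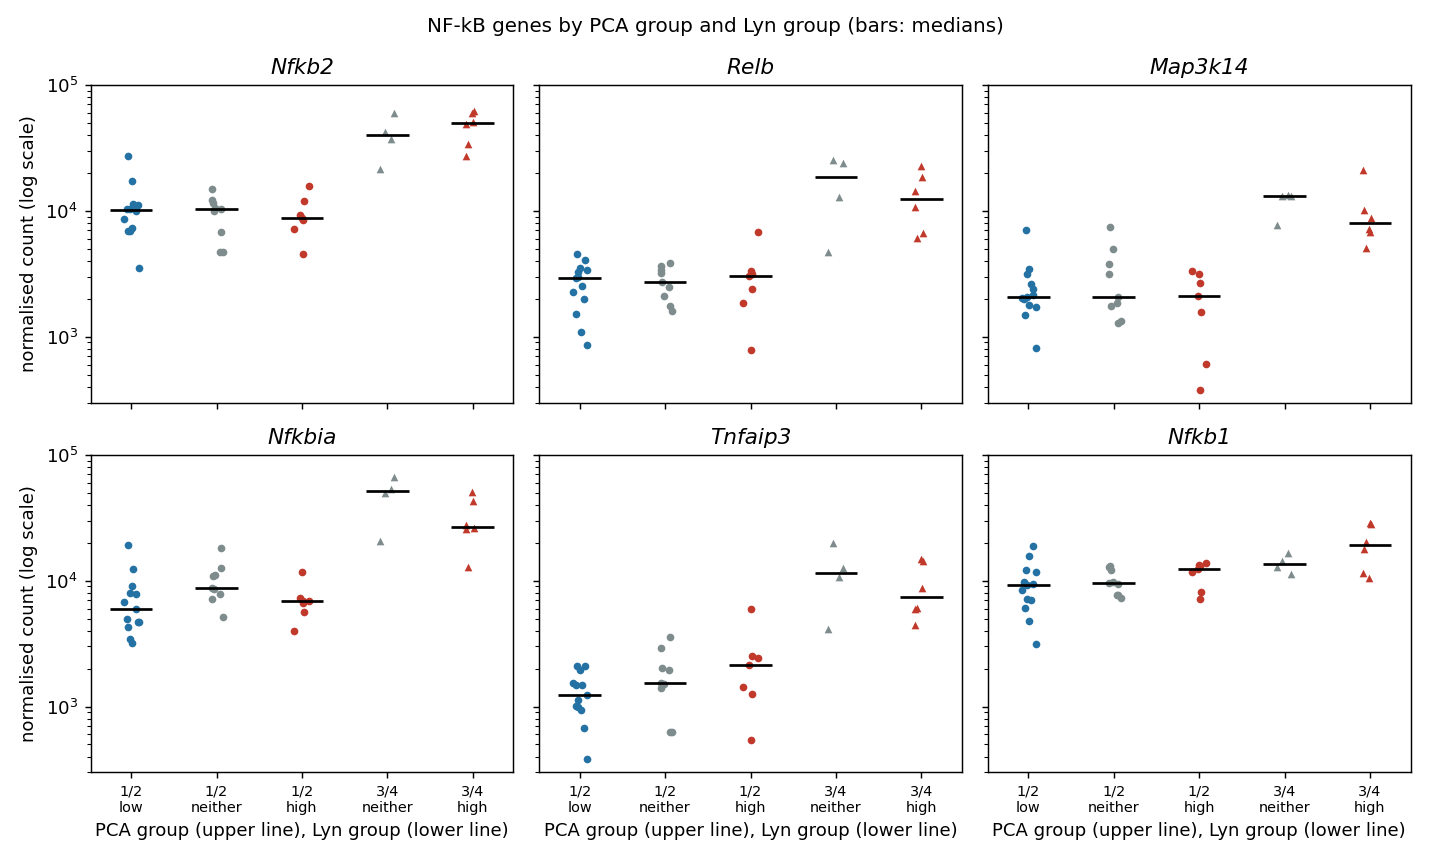
Normalised counts of 6 of the genes on a log10 axis in the tumours split by Lyn group and PCA group (n = 13, 9, 7, 4 and 6 from left to right), with medians as bars. Within PCA group 1/2 the Lyn-low, neither and Lyn-high tumours overlap, as at 3488.9 to 27269.4, 4677.0 to 14804.8 and 4560.0 to 15837.9 for Nfkb2. Tnfaip3 ran from 543.6 to 5913.2 in Lyn-high and from 380.8 to 2099.2 in Lyn-low tumours of PCA group 1/2. Of the 7 Lyn-high tumours 3 lie below the highest Lyn-low one for this gene, and the others above it. The 2 sets of PCA group 3/4 tumours lie higher.

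The split by database ID left the direction of all 10 fold changes in place. With only the 18 tumours of prefix 20, 7 genes passed, against 1272 of 18478 genes tested, with Nfkb2 at 2.06 and Bcl3 at 1.04 on the log2 scale. With only the 21 of prefix 21 the same 7 passed, against 2347 of 21424, with Nfkb2 at 2.27 and Bcl3 at 1.85. Nfkb1 had log2 fold changes of 0.61 (adjusted p = 0.116) and 0.69 (adjusted p = 0.120) in these subsets, and Rel of 0.60 (adjusted p = 0.238) and 0.72 (adjusted p = 0.232). The interaction of PCA group and prefix passed for no member (lowest adjusted p = 0.480, for Bcl3, with a difference of 0.79), against 0.0206% of all genes.

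The regulators around the 10 genes were read from lists made by function. For the counts in these lists, here and below, 12.2% of all genes tested were higher and 10.5% lower between the PCA groups. Among 9 other IκB proteins and partners of A20, 4 were higher, 0 lower and 5 did not pass, with a median log2 fold change of 0.51. The A20 partner Tnip1 had 1378.5, 2726.2 and 5678.3 normalised counts in PCA group 1/2 and 3385.8, 15573.2 and 56089.7 in PCA group 3/4 (log2 fold change 2.64, SE 0.25, adjusted p = 2.42e-10). The nuclear inhibitor Nfkbid (1.67, adjusted p = 4.34e-06) and Tnip2 (0.70, adjusted p = 0.000337) were higher too. Of 20 genes of the IKK complex and canonical signalling, 7 were higher and 13 did not pass, with a median of 0.38. The leading genes of this list were Bcl10 (0.83), which links antigen receptors to IKK, Traf6 (0.87), an ubiquitin ligase downstream of Toll-like receptors, and Ikbkb (0.78), the catalytic subunit of canonical IKK.

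The complex that destroys NIK was higher in part. In this complex TRAF3 holds NIK while TRAF2 brings the ubiquitin ligases cIAP1 (Birc2) and cIAP2 (Birc3). Of 6 listed TRAF and cIAP genes, which include Traf1 and Traf5 beside those of the complex, 4 were higher, with a median log2 fold change of 1.51. Birc2 had 1366.6, 2327.3 and 15338.1 normalised counts in PCA group 1/2 and 6927.9, 17018.0 and 43142.3 in PCA group 3/4. That is a log2 fold change of 2.85 (SE 0.27, adjusted p = 2.07e-10), larger than that of any of the 10 genes. Traf2 (1.04, adjusted p = 1.14e-07), Birc3 (2.10, adjusted p = 2.78e-06) and Traf1 (1.97, adjusted p = 1.08e-04) were the others that passed. Birc2 and Birc3 lie near each other on chromosome 9, at 7818227 to 7837064 and at 7848699 to 7873186, and copy number was not tested. Traf3, which like Traf1 was named after its value was seen, had 1942.0, 3513.9 and 11047.0 normalised counts in PCA group 1/2 against 557.2, 5210.3 and 8938.4, with a log2 fold change of 0.09 (adjusted p = 0.836).

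Ligands and receptors did not move as a block. Of 6 tested ligands of the non-canonical arm 3 were higher: Ltb (2.55, adjusted p = 3.80e-05), a lymphotoxin subunit, Tnfsf11 (1.88, adjusted p = 0.0153), the gene of RANKL, and Tnfsf13b (1.19, adjusted p = 0.00701), the gene of BAFF. Of 3 canonical ligands, Il1a (1.46, adjusted p = 0.00759) and Tnf (1.12, adjusted p = 0.0347) were higher. Among 6 receptors of the non-canonical arm, Cd40 (2.33), Tnfrsf8 (1.98) and Tnfrsf11a (1.35), the gene of RANK, were higher, while Tnfrsf12a, named after its value was seen, was lower (log2 fold change -1.11). Ltbr (-0.34, adjusted p = 0.166), the gene of the lymphotoxin β receptor, and Tnfrsf13c (-1.80, adjusted p = 0.0864) did not pass. Both were named after their values were seen. Among 5 canonical receptors, Tnfrsf1b (1.00) and Tlr2 (0.88) were higher and Tnfrsf1a (log2 fold change -0.93, adjusted p = 0.00106), the main receptor of tumour necrosis factor, was lower. Tnfrsf1a had 5640.1, 12510.0 and 34332.7 normalised counts in PCA group 1/2 and 4757.4, 6599.9 and 13085.5 in PCA group 3/4.

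Known targets were read in the same way. Of 15 canonical targets 7 were higher and 2 lower (Ier3, log2 fold change -2.64, and Cxcl1, log2 fold change -1.81, both named after their values were seen), with a median of 0.37. The adhesion genes Icam1 (3.57, adjusted p = 8.55e-11) and Vcam1 (2.64, adjusted p = 1.86e-09) and the survival genes Bcl2a1d (4.41) and Bcl2a1a (3.24) led the list, with the chemokine gene Ccl5 at 2.15. Bcl2a1d and Bcl2a1a are near-identical copies, so the share of each is uncertain. Of 9 tested targets of the non-canonical arm and RelB, 7 were higher and 0 lower, with a median of 4.21. The chemokine genes Cxcl12 (log2 fold change -0.56, adjusted p = 0.635) and Cxcl13 (1.22, adjusted p = 0.404) of this list did not pass, both named after their values were seen. Spib, a transcription factor of B cells and M cells, had 0.0, 32.0 and 1022.8 normalised counts in PCA group 1/2 and 345.6, 67630.5 and 285311.6 in PCA group 3/4 (log2 fold change 9.82, SE 0.80). Il4i1, an amino acid oxidase, had the smallest p of the list (log2 fold change 6.95, adjusted p = 2.67e-14), and Madcam1, an adhesion molecule of mucosal vessels, stood at 7.75 (adjusted p = 1.13e-11). The list was chosen with earlier results of these tumours known, so its count is not independent evidence.

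Markers of leukocytes moved with the PCA groups, between which 12.2% of all genes tested were higher and 10.5% lower. All 4 pan-leukocyte markers were higher, with a summed level of 4685.3 to 42420.7 normalised counts (median 13480.5) in PCA group 1/2 and of 21949.6 to 63277.7 (median 31775.3) in PCA group 3/4. Of the macrophage markers 7 of 8 were higher, with sums of 25476.6 to 225434.2 (median 82092.7) and 141855.5 to 565246.8 (median 229569.0). Of the T cell markers 4 of 8, of the dendritic cell markers 4 of 7 and of the follicular dendritic cell markers 2 of 2 tested were higher, the last with Cr2 at a log2 fold change of 9.84. Of the 6 B cell markers 0 passed (sums of 66.4 to 5333.5 and 165.8 to 2783.6), and of the 8 mammary epithelial markers 0 passed (sums of 106820.5 to 465871.0 and 119160.9 to 422074.7). Of the 2 salivary gland markers tested 1 was lower (Dcpp1, log2 fold change -7.08, adjusted p = 0.00568), with sums over the list of 44.9 to 15843.9 (median 212.8) and 24.6 to 398.5 (median 87.9), and of the 6 fibroblast markers 1 was lower (Pdgfra, -1.30, adjusted p = 0.0211), with sums of 11483.5 to 571094.8 and 37440.1 to 749813.7; both were named after their values were seen. The Pearson r of the 10 genes with the 2 salivary gland markers over the 39 tumours lay between -0.531 for Nfkb1 and -0.327 for Bcl3, and the part of salivary gland tissue and of fibroblasts was not tested beyond leaving out the tumours with salivary gland or lymph node. Of the plasma cell, neutrophil and endothelial markers 0 of 3, 0 of 5 and 0 of 5 passed. No marker of these lists was at 0 in all tumours of a group. With the level of Ptprc, a gene of all leukocytes, as a covariate, 7 of the 10 NFκB genes passed, against 2991 of the 19453 genes, with Nfkb1 at a log2 fold change of 0.56 (adjusted p = 0.0570) and Rel at 0.49 (adjusted p = 0.185). With the macrophage markers 7 passed, against 2870 of all genes, and 8 passed with those of B cells (3165) or of dendritic cells (2697). Over the 39 tumours the Pearson r of the 10 genes with the leukocyte markers lay between 0.32 for Rela and 0.681 for Tnfaip3. With the mammary epithelial markers it lay between 0.051 for Bcl3 and 0.249 for Nfkb1. Inside PCA group 1/2 the r with the leukocyte markers lay between -0.161 for Bcl3 and 0.437 for Tnfaip3. There the r with the mammary epithelial markers lay between 0.215 for Bcl3 and 0.574 for Tnfaip3, and was the higher one for each gene. The part of leukocytes in the remaining difference was not tested.

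The supervised comparison by Lyn level gave fewer and less stable differences. Between Lyn-high and Lyn-low tumours 4 of the 10 genes were higher and 0 lower, against 6.58% of the 17709 genes tested that were higher. Tnfaip3 had 380.8, 1224.1 and 2099.2 normalised counts in Lyn-low and 543.6, 4445.0 and 14846.2 in Lyn-high tumours; the median of Lyn-low tumours was exceeded in 12 of the 13 Lyn-high ones. Its log2 fold change was 2.06 (SE 0.41, adjusted p = 0.00125). Relb had 861.4, 2906.4 and 4519.4 against 788.0, 6116.9 and 22544.5 normalised counts (log2 fold change 1.53, SE 0.40, adjusted p = 0.0162), with 10 of 13 above. Nfkbia had 3168.8, 5986.8 and 19208.3 against 3971.6, 11620.9 and 50154.4 (1.31, SE 0.38, adjusted p = 0.0331), with 11 of 13 above. Nfkb2 had 3488.9, 10126.4 and 27269.4 against 4560.0, 15837.9 and 62072.9 (1.31, SE 0.39, adjusted p = 0.0347), with 8 of 13 above. The groups overlapped for all 10 genes.

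The other 6 genes did not pass between the Lyn groups. Nfkbie and Map3k14 had log2 fold changes of 1.30 (SE 0.48, adjusted p = 0.100) and 1.16 (SE 0.44, adjusted p = 0.113), of a size like those of Nfkbia and Nfkb2. Nfkb1 stood at 0.68 (adjusted p = 0.0965), Bcl3 at 0.35 (adjusted p = 0.462), Rel at 0.34 (adjusted p = 0.525) and Rela at 0.05 (adjusted p = 0.918). Of the 13 Lyn-high tumours, 6 were the PCA group 3/4 tumours described above. Within PCA group 1/2, the 7 Lyn-high tumours had 543.6, 2126.1 and 5913.2 normalised counts of Tnfaip3 and the 13 Lyn-low tumours 380.8, 1224.1 and 2099.2, a log2 fold change of 0.78 (SE 0.35, adjusted p = 0.357). There 0 of the 10 genes passed in edgeR or in DESeq2, while 1.69% of the 18863 genes passed in edgeR. At an unadjusted p under 0.05 there were 2 of the 10, against 2317 of all genes. The second of these was Bcl3, with a log2 fold change of -0.56 (SE 0.20, adjusted p = 0.204) and medians of 2151.9 normalised counts in Lyn-high and 3396.5 in Lyn-low tumours. The 95% intervals in this comparison reached from -0.85 to 0.39 for Nfkb2 and from -0.54 to 0.85 for Relb.

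The count of 4 also turned on the tumours and covariates used. It was 0 with the ID prefix as a covariate (639 of the 17709 genes passed), with the animal as a fixed block, where 2 of 20 animals had tumours in both Lyn groups (0 of all genes passed), within the 13 tumours of prefix 20 and within the 13 of prefix 21. In the former subset Tnfaip3 had a log2 fold change of 2.19 (adjusted p = 0.0789) and in the latter of 0.43 (adjusted p = 0.869), where Nfkbia and Nfkb2 were at -0.27 and -0.18. It was also 0 with the level of Ptprc or with the B cell, macrophage or dendritic cell markers as a covariate (4, 9, 2 and 298 of all genes), and 1, Tnfaip3, with the animal as a random block or without those whose sections held salivary gland or lymph node. Leaving out 1 tumour gave 1 to 5 genes: 1 without Lynfl/wt 25, and 2 without any of Lynwt/wt 2, 20, 21, 40 and 60, Lynfl/wt 8, 19 and 31, and Lynfl/fl 35, 38, 55, 56 and 73. Among all genes tested, 6.58% were higher in Lyn-high than in Lyn-low tumours. Markers of leukocytes were higher in Lyn-high tumours (4 of 4, sums of 4685.3 to 14471.9 in Lyn-low and 9969.6 to 63277.7 in Lyn-high), as were 5 of 5 tested B cell, 7 of 8 T cell and 7 of 8 macrophage markers. Their part in the Lyn difference cannot be told apart from the Lyn label.

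By genotype, the label that does not rest on expression, no member passed. The paper found the floxed Lyn allele intact in primary cultures of some tumours, and no difference in Lyn counts between the cohorts. It also found significantly less LYN staining in tumour cells of Lynfl/fl mice than of either other genotype, though some tumours kept strong staining. Expression of the floxed exon was significantly lower in Lynfl/fl than in Lynwt/wt cultures, again not in every tumour. The comparison is therefore one of genotypes with uneven loss of LYN, not of tumours with and without it. Between Lynfl/fl and Lynwt/wt tumours 0 of the 10 genes passed in edgeR (adjusted p from 0.678 to 0.994), 0 had an unadjusted p under 0.05, against 2192 of all genes, and 0 passed in DESeq2, while 0.0368% of the 18998 genes passed in edgeR. Nfkb2 had 3488.9, 8635.7 and 62072.9 normalised counts in Lynwt/wt, 4687.8, 15982.6 and 59948.0 in Lynfl/wt and 6897.2, 10252.1 and 60355.6 in Lynfl/fl tumours. Nfkbia had 3168.8, 6735.4 and 26026.4, then 4734.9, 10890.0 and 53476.0, then 3463.3, 8656.7 and 66890.8. For Nfkb2 each genotype reached nearly the same highest value, for Nfkbia the Lynwt/wt tumours stopped lower, and the Lynfl/wt medians were the highest of the 3 for both genes. The 95% confidence interval of the log2 fold change of Lynfl/fl against Lynwt/wt ran from -0.31 to 0.41 for Rela, the narrowest, and from -1.33 to 0.93 for Tnfaip3, the widest.

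Lynfl/wt tumours had positive log2 fold changes against Lynwt/wt tumours for all 10 genes, with 0 passing in edgeR and 3 at an unadjusted p under 0.05, while 0.0158% of the 18998 genes passed and 2123 had an unadjusted p under 0.05. These 3 were Nfkbia (1.05, SE 0.47, adjusted p = 0.386), Relb (1.03, SE 0.50, adjusted p = 0.437) and Map3k14 (1.01, SE 0.48, adjusted p = 0.428). Of the 14 Lynfl/wt tumours 6 were in PCA group 3/4, against 3 of the 12 Lynwt/wt and 1 of the 13 Lynfl/fl tumours. Within PCA group 1/2 the medians of Relb were 1854.8, 3270.2 and 2951.5 normalised counts in Lynwt/wt, Lynfl/wt and Lynfl/fl tumours. Between Lynfl/fl and Lynfl/wt tumours 0 members and 0 genes in all passed in edgeR, 1333 genes had an unadjusted p under 0.05, and the lowest adjusted p of a member was 0.738, for Tnfaip3 (log2 fold change -1.04).

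**Figure D4:**
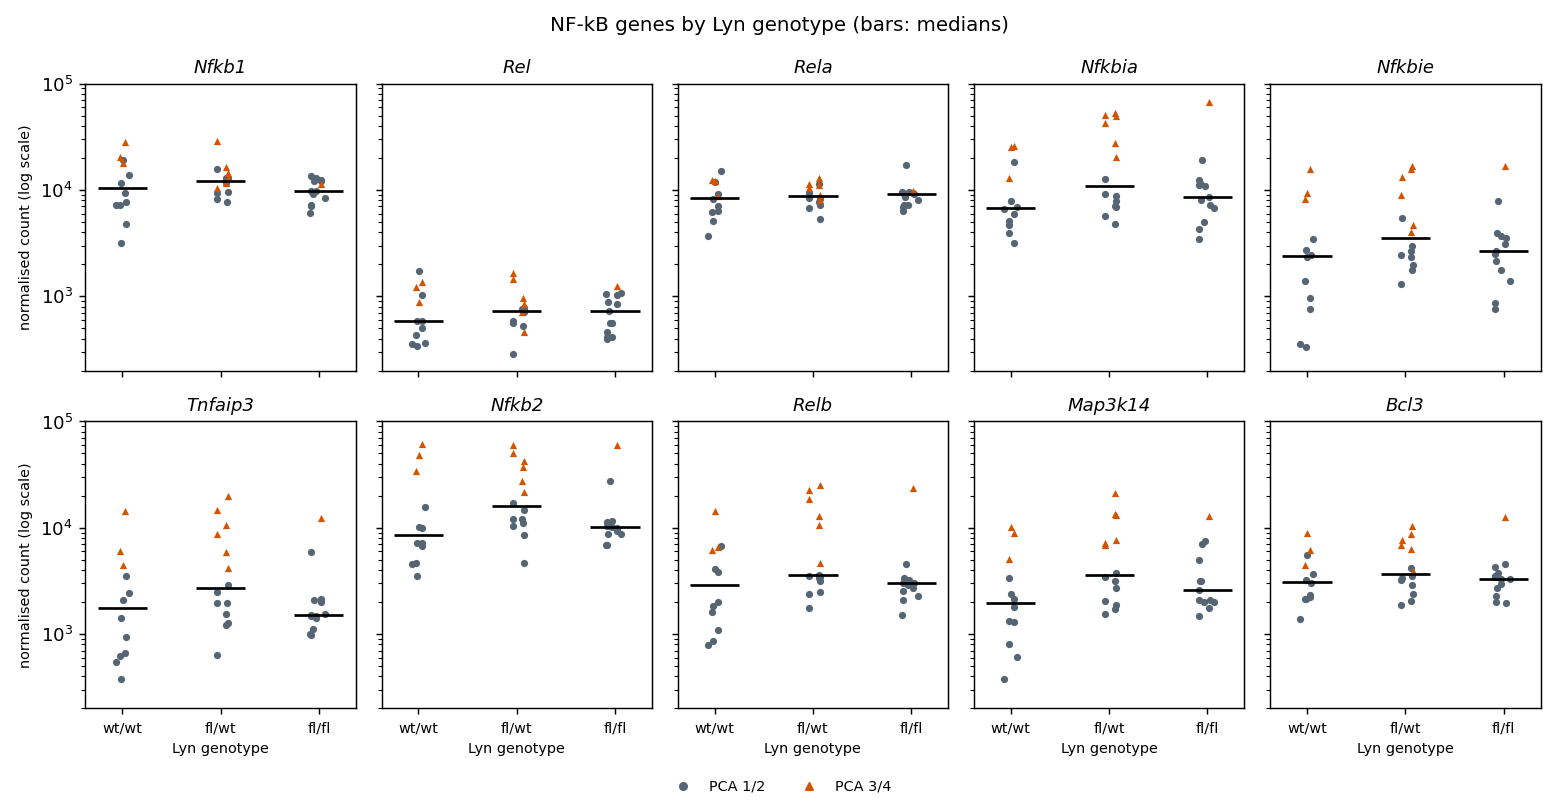
Normalised counts of the 10 genes on a log10 axis by Lyn genotype (12 Lynwt/wt, 14 Lynfl/wt and 13 Lynfl/fl tumours), with medians as bars and PCA group 3/4 tumours as orange triangles. The ranges of the 3 genotypes overlap for each gene, such as 3693.2 to 15031.9, 5332.4 to 12822.6 and 6327.5 to 17036.0 for Rela, and the highest values of Nfkb2 in each genotype are those of PCA group 3/4 tumours.

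The 10 genes varied together to unequal degrees. Over the 39 tumours the Pearson r of log2 CPM was highest for Nfkbie and Nfkb2 (0.904), Nfkb2 and Relb (0.897) and Tnfaip3 and Relb (0.894), and lowest for Rel and Rela (0.378). These values take in the difference between the PCA groups. Within the 29 PCA group 1/2 tumours, r was 0.818 for Nfkbie and Relb, 0.782 for Nfkbie and Nfkb2, 0.755 for Rela and Nfkb2 and 0.748 for Nfkb1 and Relb. Nfkbia there had an r of 0.458 with Nfkb2 and of -0.059 with Rel, and Bcl3 of 0.083 with Nfkbia. Rela, with the smallest difference between the PCA groups, kept an r of 0.702 with Relb and of 0.619 with Bcl3. The tumours share animals and differ in cell content, so no p is given.

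**Figure D5:**
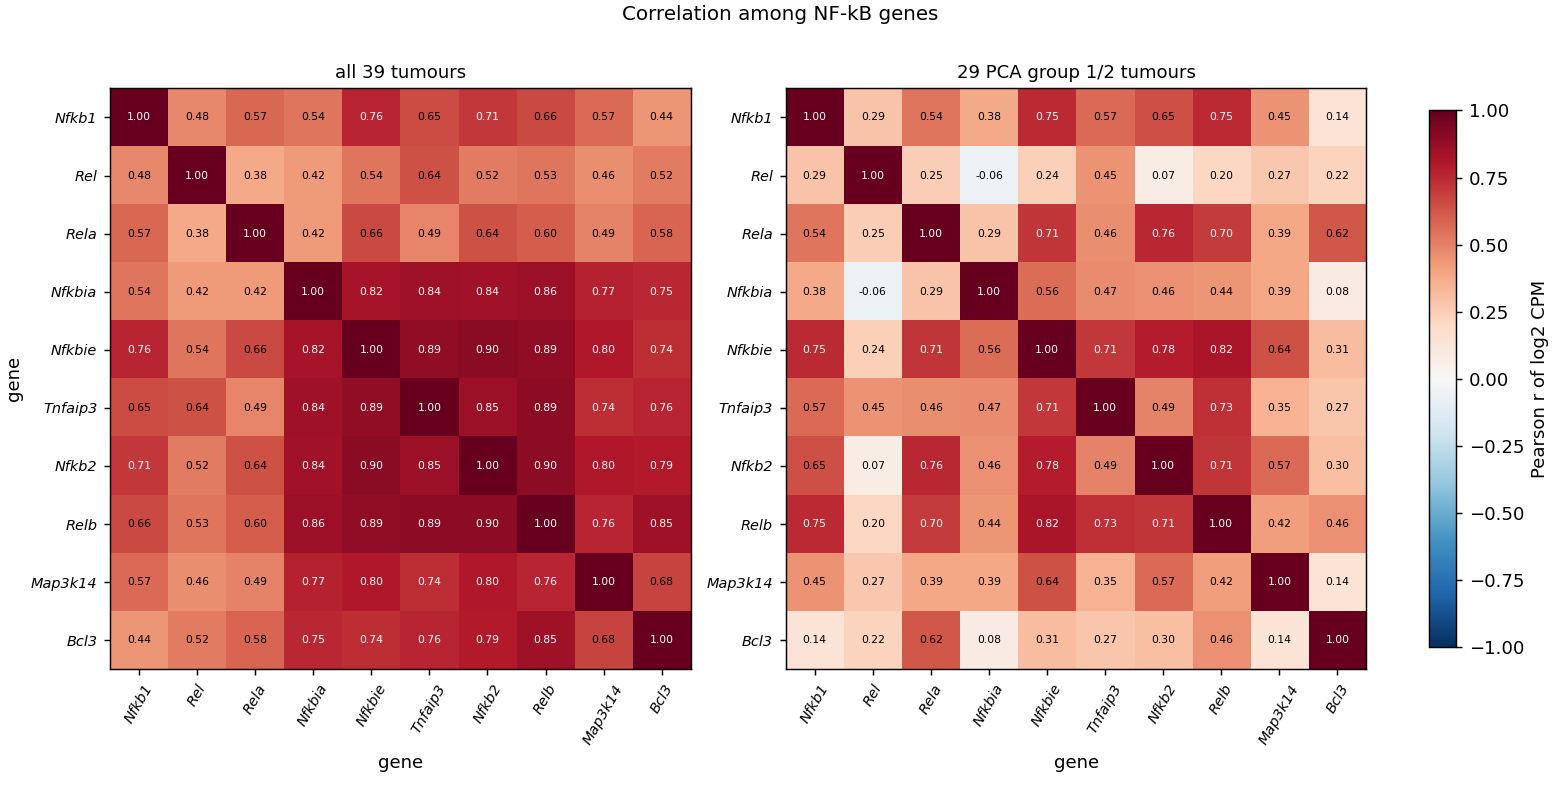
Pearson r of log2 CPM between each pair of the 10 genes, over all 39 tumours in the left panel and over the 29 PCA group 1/2 tumours in the right panel, by colour and printed value. The block of Nfkbia, Nfkbie, Tnfaip3, Nfkb2 and Relb holds r of 0.823 to 0.904 on the left and of 0.443 to 0.818 on the right.

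Other genes most like the members over the 39 tumours were found by the same measure. Nfkbie, Tnfaip3, Nfkb2 and Relb all had the gene model RP23-129D21.1 among their 3 closest genes (r of 0.926, 0.899, 0.899 and 0.903), and Icam1 was among those of Nfkbie (0.897). The transcription factor gene Gfi1b was closest to Relb (0.911) and second to Nfkbia (0.881), after Trim65 (0.896). Tnfaip3 was closest to Stx11 (0.903), a syntaxin of immune cells, and Bcl3 to Slc35g1 (0.850), with Relb (0.849) next. The canonical subunits had other neighbours: Bcl10 (0.883) and Sh3glb1 (0.851) for Nfkb1, Actr2 (0.812) and Vrk2 (0.777) for Rel, and Sh3bp2 (0.772) and Capn1 (0.770) for Rela. Map3k14 was closest to Zbtb7c (0.887) and Alox12e (0.885). Some of these genes share a chromosome with the member. Bcl10 (145922804 to 145934356) lies on chromosome 3 like Nfkb1, and Relb lies near Bcl3 on chromosome 7. The places of the other neighbours are not given here, and the part of chromosome place or copy number in these r was not tested.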

How the data were processed

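RNA was sequenced from 39 tumours of 28 mice as stranded poly(A) libraries. Tumours are the units of the tests; 9 animals gave 20 of them, so p-values treat some related tumours as independent. The authors used fastp for trimming and STAR 2.5.1b for alignment to GRCm38, and counted reads per gene with featureCounts 1.5.1 against Gencode vM17, without reads that map to several places. The raw counts the authors deposited were used as they are. Of counts from 1 to 10, 79.77% were even, as where both reads of a pair are counted. The deposited normalised values and the fold changes and p-values of the authors' own comparisons were not used.

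Totals ran from 50490044 to 83122719 counts per tumour, and 14411 of the 53715 genes had no count. Counts were tested with edgeR 4.0.16 (filterByExpr, TMM factors, quasi-likelihood F-test, two-sided, Benjamini-Hochberg adjustment over all genes tested) in R 4.3.3, with limma 3.58.1 for the animal as a random block and DESeq2 1.42.0 as an alternative. SE is the log2 fold change over the square root of F, and intervals are 95%. Normalised counts are at a library of 64588084 counts, and log2 CPM values carry a prior count of 2. Groups came from the sample labels. Gene places and exon lengths came from Gencode vM21, which held 53620 of the gene IDs, and promoters from RefSeq GRCm38.p6. The analysis was tested on simulated data. Of simulated 2-fold changes, 63% passed in the right direction between the PCA groups, 49% between the Lyn groups and 63% by genotype. For 4-fold changes the shares were 93%, 92% and 82%. False calls made up 2.5%, 4.08% and 3.33% of the genes that passed. The simulated tumours were independent, and changes were set only in well-counted genes, as many up as down. These rates therefore do not cover tumours that share an animal, groups formed from expression or genes of low count.

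The members and the gene lists were chosen with earlier results of these data known. Named beside the members are, from each list, the 3 genes of smallest p between the PCA groups and genes the study measured by qRT-PCR, and for each member the 3 genes of highest Pearson r, of which some are given; cell type lists are given by counts and summed levels. Genes outside this rule are marked in the text as chosen later. Alternatives were DESeq2, other size factors, other low-count filters, a 2-fold threshold, the ID prefix, animals, cell type markers, tumours whose sections held salivary gland or lymph node, and leaving out each tumour. The macrophage, dendritic cell and mammary epithelium covariates, the removal of 1 animal, the fixed block of animals, and all alternatives of the comparisons within subsets were chosen after seeing the data.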

Additional observations from a re-analysis of the deposited data

Results flagged for a closer look

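Of 50 pairs of a member and a group of 4 to 10 tumours, 7 held a tumour whose gap to its nearest neighbour, divided by the range of the group, passed Dixon's 95% limit. For independent, normally distributed values about 1 in 20 pass by chance. Here counts were not transformed, some groups lie inside others and the genes vary together, so 7 of 50 cannot be set against that rate. The NIK gene Map3k14 stood at 21030.0 normalised counts in Lynfl/wt 19, above the next tumour at 13477.2 among the 10 of PCA group 3/4 and above 10129.1 among its 6 Lyn-high tumours. Among the 4 PCA group 3/4 tumours in neither Lyn group, Lynfl/wt 9, from the same animal, was low for Map3k14 (7665.9, next 13048.5) and for Nfkbie (4708.9, next 15702.2). Among the 7 Lyn-high tumours of PCA group 1/2, Lynfl/fl 13 was high for Nfkbia (11620.9, next 7258.5) and Tnfaip3 (5913.2, next 2515.2), and Lynwt/wt 59 for Relb (6754.7, next 3343.4).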

How the results depend on the processing

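Between the PCA groups the count of members that passed was 9, from 6 to 9 over 17 alternatives and from 9 to 10 when 1 tumour was left out. Nfkbia, Nfkbie, Tnfaip3, Nfkb2, Relb and Map3k14 passed in all 56 of these fits, and Bcl3 in all but that with the animal as a fixed block. Nfkb1 and Rel did not in that fit, within either ID prefix, without the tumours whose sections held salivary gland or lymph node, or with Ptprc or the macrophage markers as a covariate, nor did Rel with the B cell or dendritic cell markers. Between the Lyn groups the count of 4 became 0 with the ID prefix as a covariate, with only ID prefix 20, with only ID prefix 21, with the animal as a fixed block, and with Ptprc, B cell, macrophage or dendritic cell markers as a covariate. It became 1 without the tumours with salivary gland or lymph node and with the animal as a random block, and lay between 1 and 5 when 1 tumour was left out. With only ID prefix 21 the log2 fold changes of Nfkbia and Nfkb2 were -0.27 and -0.18. Within Lyn-high tumours the PCA count of 7 became 3 without the tumours with salivary gland or lymph node and was 8 with DESeq2, and within tumours of neither Lyn group it was 6 or 7. The causes were not tested. By genotype, for Lyn within PCA group 1/2 and for both interactions it was 0 in every fit run.

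Over all genes, counts passing differed from the main ones as follows. Between the PCA groups 4401 became 2753 with the 2-fold threshold, 1272 and 2347 within ID prefix 20 and 21, 301 with the animal as a fixed block, 2870 with macrophage and 2697 with dendritic cell markers. Between the Lyn groups 1354 became 2271 with DESeq2, 2067 with no filter, 639 with the ID prefix, 311 and 0 within prefix 20 and 21, 0 with the animal as a fixed block, 4 with Ptprc, 9 with B cell, 2 with macrophage and 298 with dendritic cell markers. By genotype 7 became 151 with DESeq2, 21 with no filter, 2 with dendritic cell and 4 with mammary epithelium markers, and 0 with the stricter filter, either ID prefix, the prefix or Ptprc or macrophage covariate, and the animal block. Within Lyn-high tumours 410 became 1679 with DESeq2 and 155 without the tumours with salivary gland or lymph node, within those of neither group 941 became 2405 and 558, and for Lyn within PCA group 1/2 318 became 690 and 207. No paired analysis was possible by replicate number because none is shared between groups; the animal served as the block instead, and by genotype only as a random one, as all tumours of an animal share it.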
